A study of Mus musculus with 16 samples.

Results

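The TGFβ and BMP signalling components are a module of 41 genes chosen by name: ligands, receptors, the Smad proteins that carry the signal to the nucleus, secreted and intracellular inhibitors, latent TGFβ binding proteins and the Id target genes. All 41 were measured, 1 probe per gene, among the 24373 features tested on 16 single-colour Agilent arrays hybridised with Cy3-labelled cRNA. Each array held RNA of the whole ovary of mice aged 1 year, with 4 arrays per group. Ex3abERKO ovaries lacked both estrogen receptors, ERα and ERβ. Ex3aERKO ovaries came from ERα knockout mice and Ex3bERKO ovaries from ERβ knockout mice. The control ovaries carried 1 allele of each receptor, so they had a reduced receptor gene dose themselves and were not wild type. The labels do not give the strain, the removed part of either gene or whether the knockouts were limited to some cells. They also do not say that the arrays of a group were separate animals, so the p-values cover the scatter among these arrays alone, part of which may be technical.

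TGFβ and BMP ligands are secreted dimers that bring together type I and type II receptor kinases on the cell surface. TGFβ and activin receptors then phosphorylate Smad2 and Smad3, BMP receptors phosphorylate Smad1 and Smad5, and either pair enters the nucleus with Smad4. In the ovary these ligands pass between oocyte, granulosa and theca cells and act on follicle growth, steroid synthesis and matrix deposition. TGFβ is secreted in a latent form that latent TGFβ binding proteins tether to matrix fibres, and BMPs are held back outside the cell by noggin, chordin and gremlin.

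A level below is the log2 of a probe's processed intensity divided by the 75th percentile of its array, and a change is a difference of mean levels, so 1 unit is a doubling. Changes were tested with limma across all 24373 features, and a gene is said to have risen or fallen only where its adjusted p was under 0.05. The array 75th percentiles lay between 1211 and 1806 intensity units, and 80.4% to 87.6% of spots were well above background. Of the 41 genes, 39 were well above background on every array. In Ex3abERKO ovaries Bmp5 was well above background on 2 of 4 arrays and Grem1 on 3 of 4. The Esr1 probe, for ERα, spanned -2.11 to -1.04 in Ex3abERKO ovaries. Ex3aERKO ovaries spanned -3.66 to -1.89 for it, Ex3bERKO ovaries -1.06 to 0.34, and control ovaries -0.32 to 0.20. The Esr2 probe, for ERβ, spanned -2.54 to -1.61 in Ex3abERKO ovaries. Ex3aERKO ovaries spanned -1.07 to 1.58 for it, Ex3bERKO ovaries -0.58 to 1.00, and control ovaries -0.33 to 0.34. Esr2 was not lower in Ex3bERKO than in control ovaries at this probe (log2 change 0.43, limma adjusted p = 0.913). Since the removed parts are not given, these probes do not check the labels.

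The RNA was of whole organs, so fewer cells of a type and less RNA per cell cannot be told apart. All 10 granulosa markers and all 6 theca and Leydig markers were well above background, as the labelled organ should show, and the following sums are of linear levels over a list. Granulosa markers summed to between 59.2 and 114 in Ex3abERKO ovaries, 172 to 375 in Ex3aERKO, 131 to 184 in Ex3bERKO, against 132 to 223 in control. Theca and Leydig markers summed to between 76.6 and 144 in Ex3abERKO ovaries, 256 to 328 in Ex3aERKO, 233 to 290 in Ex3bERKO, against 291 to 421 in control. The Ex3abERKO ovaries were thus below every other array on both lists. Stroma and matrix markers (8 of 8 measured) summed to between 217 and 429 in Ex3abERKO, 109 to 237 in Ex3aERKO, 155 to 273 in Ex3bERKO, against 125 to 180 in control. Macrophage markers (7 of 7) summed to between 305 and 332 in Ex3abERKO, 231 to 277 in Ex3aERKO, 175 to 248 in Ex3bERKO, against 146 to 199 in control, and all 7 rose in Ex3abERKO ovaries against control. Both lists were above control in every Ex3abERKO ovary. Oocyte markers (9 of 10 measured) summed to between 5.30 and 8.97 in Ex3abERKO and 1.30 to 8.22 in Ex3aERKO, against 20.3 to 63.9 in Ex3bERKO, against 17.0 to 38.3 in control. Markers of Sertoli cells, the somatic support cells of the testis, summed to between 12.0 and 47.0 in Ex3abERKO, 5.44 to 10.1 in Ex3aERKO, 2.78 to 5.26 in Ex3bERKO, against 1.29 to 1.91 in control. Adipose markers (6 of 6) summed to between 51.2 and 98.8 in Ex3abERKO, against at most 42.3 on any other array. A sum follows its brightest genes and need not hold for each gene of a list. In Ex3abERKO ovaries against control 1 of the 10 granulosa genes rose and 5 fell. Of the 6 theca and Leydig genes 1 rose and 4 fell, and of the 8 Sertoli genes 7 rose and 1 fell. In Ex3aERKO ovaries against control 2 theca and Leydig genes rose and 2 fell. Of the 6 adipose genes 1 rose and 0 fell in Ex3abERKO ovaries against control, with 1 lower by limma's unadjusted p under 0.05. In Ex3aERKO ovaries against control 0 rose and 3 fell. Over all features 22.3% and 8.06% were called in those comparisons. Endothelial markers (8 of 8) summed to between 14.0 and 15.5 in Ex3abERKO ovaries, 10.4 to 11.3 in Ex3aERKO, 14.1 to 19.4 in Ex3bERKO, against 17.1 to 26.3 in control. Surface epithelium markers (8 of 8) summed to between 36.7 and 60.5 in Ex3abERKO ovaries, 27.7 to 84.3 in Ex3aERKO, 17.2 to 73.9 in Ex3bERKO, against 15.6 to 22.8 in control. Luteal markers (5 of 5) summed to between 18.9 and 49.0 in Ex3abERKO ovaries, 14.4 to 69.1 in Ex3aERKO, 12.6 to 182 in Ex3bERKO, against 58.3 to 285 in control. The part of these cell type markers in any change of the 41 genes was not tested. Liver markers (2 of 4 measured) summed to 93.9 in Ex3aERKO 2 and to at most 0.0842 on any other array, and oviduct markers (5 of 5) to 50.2 in Ex3abERKO 2 and at most 10.7 elsewhere. Erythroid markers (3 of 4 measured) summed to between 33.4 and 99.3 in Ex3abERKO ovaries, 29.3 to 94.6 in Ex3aERKO and 12.4 to 44.9 in Ex3bERKO. In control they summed to 132 in control 4 and to at most 15.2 on the other arrays.

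Since the groups differ in their estrogen receptor genes, the RefSeq promoter windows of the 41 genes (GRCm38.p6, 250 bases before to 50 after each start) were searched for receptor motifs, and 30 genes had a window. The palindromic estrogen response element (GGTCA, any 3 bases, then TGACC) was in 0 of their 38 windows, and in 0.0700% of all 32851 windows. A single arm of it, GGTCA, was in 10 of 38 windows on either strand, against 40.5% of all windows. These matches describe letters and not binding sites, and no match says only that these letters are not in the window. The BMP-responsive GC element GGCGCC, searched on both strands, was in 14 of 38 windows, of 12 genes, against 11.9% of all. The windows of the 41 genes had a median GC content of 66.7%, against 52.7% in all windows. Bmpr1b, Ltbp4 and Smad5 each had windows that partly overlapped another window of the same gene. The Smad palindrome GTCTAGAC was in 1 of 38 windows, that of Smad6, against 0.213% of all. The SF-1 site TCAAGGTCA, which contains GGTCA, was in 0 of 38, against 0.423%. The 250 bases upstream of the start are shown 5′ to 3′ for 4 of the genes described below, chosen after their values were seen: Ltbp1 (chr17:75005279-75005528 and chr17:75178531-75178780, plus strand, 2 starts), which fell in all 3 knockouts, Ltbp2 (chr12:84876492-84876741, minus strand), Bmp6 (chr13:38345466-38345715, plus strand) and Grem1 (chr2:113758649-113758898, minus strand). Capitals mark TGACC, which is GGTCA on the other strand, and in Grem1 also GGCGCC, which ends where a TGACC begins.
Ltbp1, start 1: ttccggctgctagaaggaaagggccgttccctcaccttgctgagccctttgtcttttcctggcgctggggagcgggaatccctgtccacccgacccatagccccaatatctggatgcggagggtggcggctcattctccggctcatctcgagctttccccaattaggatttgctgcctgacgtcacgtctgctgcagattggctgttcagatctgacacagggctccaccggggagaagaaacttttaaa
Ltbp1, start 2: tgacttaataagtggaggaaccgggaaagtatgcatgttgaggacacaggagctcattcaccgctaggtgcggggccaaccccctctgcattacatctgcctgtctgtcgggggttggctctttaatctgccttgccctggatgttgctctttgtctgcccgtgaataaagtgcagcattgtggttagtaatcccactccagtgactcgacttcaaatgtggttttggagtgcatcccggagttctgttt
Ltbp2: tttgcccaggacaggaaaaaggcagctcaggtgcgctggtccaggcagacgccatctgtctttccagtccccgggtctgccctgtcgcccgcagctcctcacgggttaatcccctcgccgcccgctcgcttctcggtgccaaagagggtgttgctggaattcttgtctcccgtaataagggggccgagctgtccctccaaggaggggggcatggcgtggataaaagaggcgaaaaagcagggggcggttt
Bmp6: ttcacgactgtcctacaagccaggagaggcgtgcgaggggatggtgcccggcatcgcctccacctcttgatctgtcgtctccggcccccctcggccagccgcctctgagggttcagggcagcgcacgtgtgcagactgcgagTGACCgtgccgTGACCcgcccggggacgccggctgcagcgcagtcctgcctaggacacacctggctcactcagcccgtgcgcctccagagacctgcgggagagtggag
Grem1: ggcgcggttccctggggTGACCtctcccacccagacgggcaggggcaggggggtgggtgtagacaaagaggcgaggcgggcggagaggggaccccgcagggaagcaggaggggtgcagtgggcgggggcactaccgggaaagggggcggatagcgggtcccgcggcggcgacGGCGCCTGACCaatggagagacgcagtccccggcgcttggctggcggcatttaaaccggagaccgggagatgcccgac
Counted from the start site, TGACC began at -108 and -97 in Bmp6 and at -233 and -72 in Grem1. Neither Ltbp1 window nor that of Ltbp2 held any of the motifs searched.

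Loss of both receptors changed ligands, 2 receptors and 3 of the 4 latent TGFβ binding proteins. No Smad passed the test in any comparison, but the Smads are too few for this to set them apart from all features. In Ex3abERKO ovaries against control, 8 of the 41 genes rose (Tgfb2, Tgfb3, Tgfbr2, Bmp6, Bmp7, Gdf10, Ltbp2 and Ltbp4) and 4 fell (Bmp2, Bmp3, Acvr2b and Ltbp1). That is 29.3% of the genes, where 22.3% of all 24373 features were called (10.7% higher and 11.7% lower), so the count alone does not set the module apart. In Ex3aERKO ovaries against control 2 rose (Bmp6 and Ltbp2) and 1 fell (Ltbp1), or 7.32% against 8.06% of all features (3.86% higher and 4.2% lower). In Ex3bERKO ovaries against control 0 rose and 1 fell (Ltbp1), or 2.44% against 1.05% of all features (0.398% higher and 0.656% lower); by limma's unadjusted p under 0.05, 2 were higher and 4 lower. The median change of the 41 genes was 0.02 in Ex3abERKO, 0.12 in Ex3aERKO and 0.08 in Ex3bERKO ovaries, against medians over all features of -0.10, -0.08 and 0.01. All 3 comparisons use the same 4 control arrays.

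**Figure D1:**
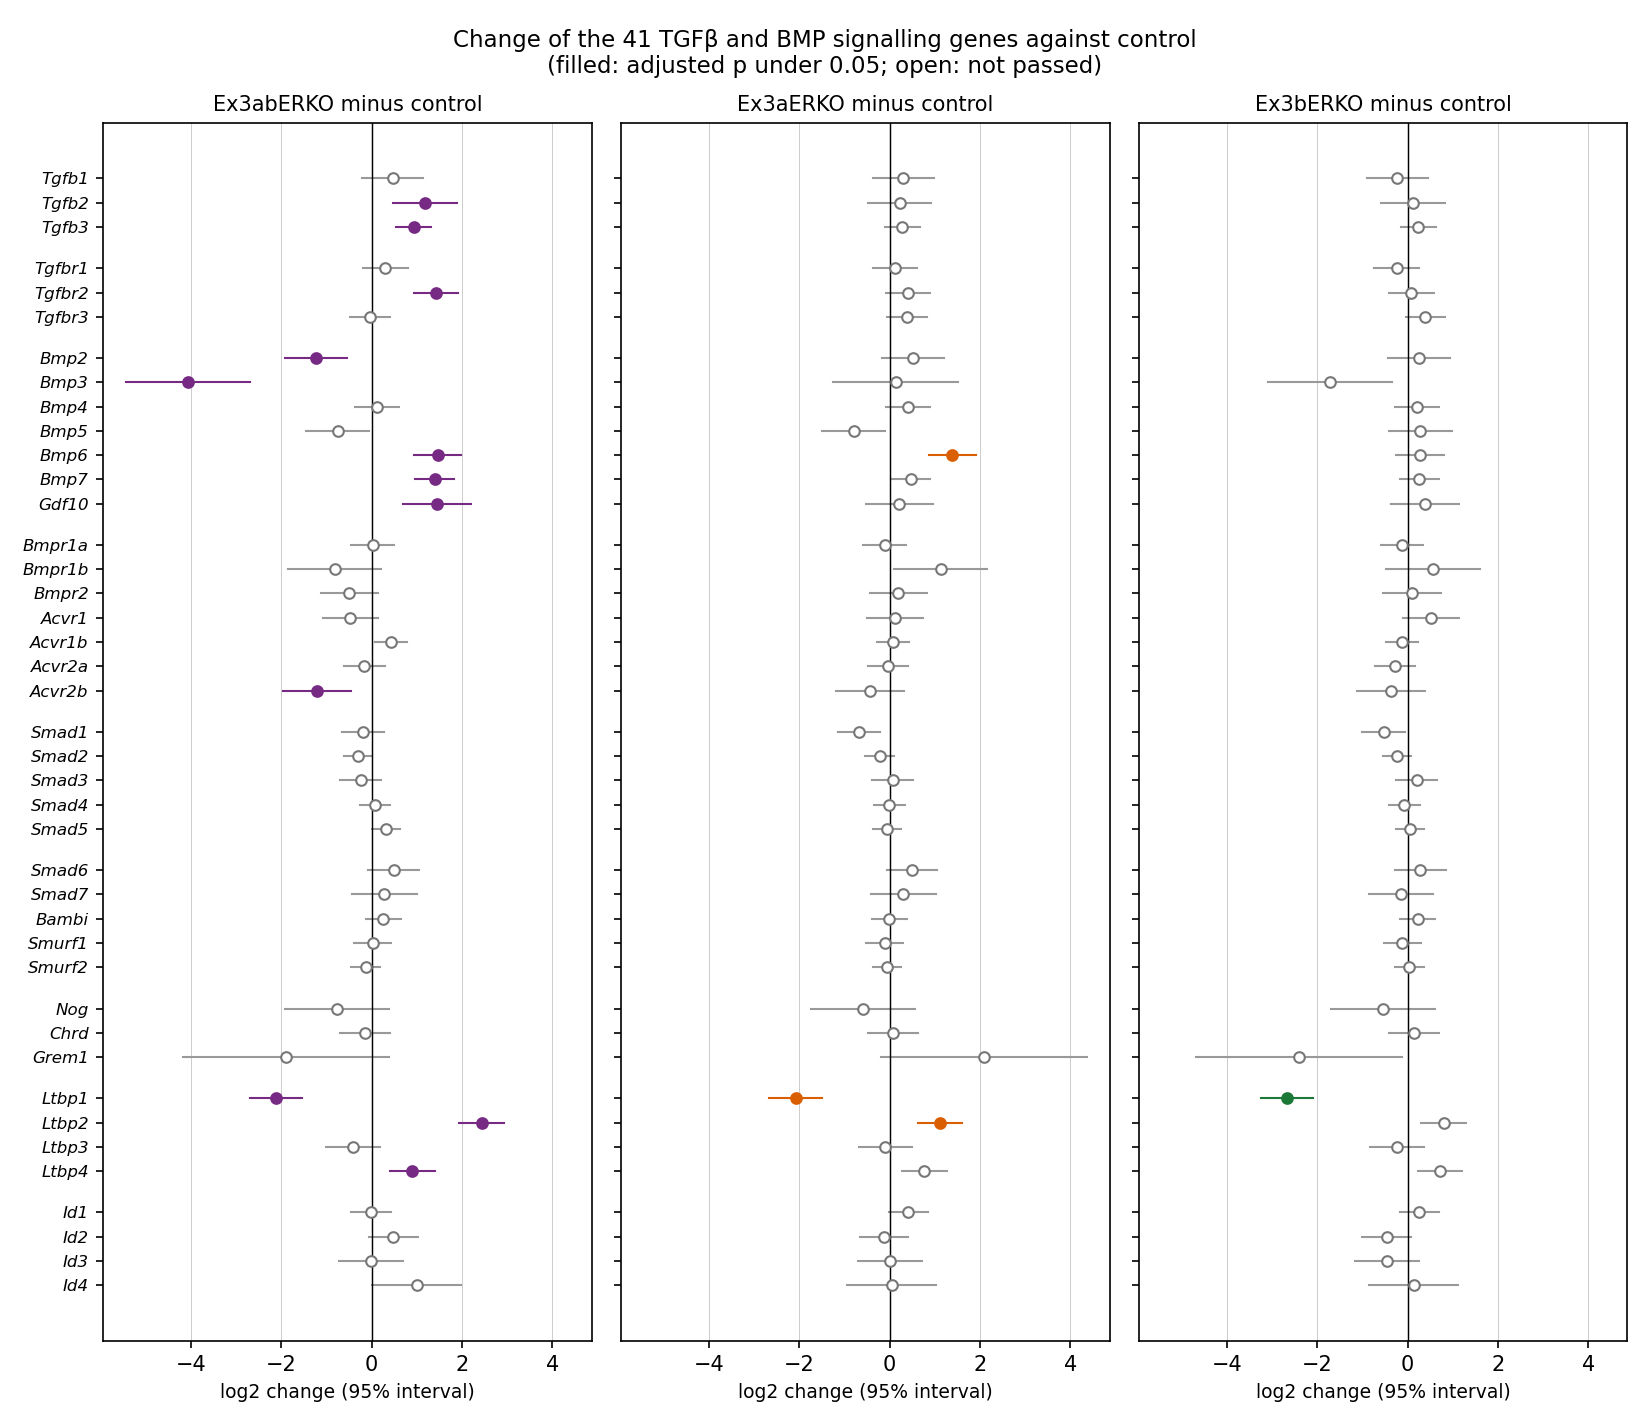
Change of each of the 41 genes against control, in log2 units, for Ex3abERKO (left), Ex3aERKO (middle) and Ex3bERKO (right) ovaries; points are fitted changes, bars their 95% intervals, and filled points passed an adjusted p of 0.05. Filled points are 12 in the left panel, 3 in the middle and 1 on the right, and Ltbp1 is the gene filled to the left of 0 in all 3.

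Between the knockouts, adding ERβ loss to ERα loss (Ex3abERKO against Ex3aERKO) raised 5 of the 41 genes (Tgfb3, Tgfbr2, Bmp7, Gdf10 and Ltbp2) and lowered 4 (Bmp2, Bmp3, Bmpr1b and Grem1), or 22.0% where 7.78% of all features were called (4.43% higher and 3.35% lower). Adding ERα loss to ERβ loss (Ex3abERKO against Ex3bERKO) raised 8 (Tgfb2, Tgfb3, Tgfbr2, Bmp6, Bmp7, Acvr1b, Id2 and Ltbp2) and lowered 4 (Bmp2, Bmp3, Bmp5 and Acvr1), or 29.3% against 16.7% of all features (8.26% higher and 8.43% lower). With slide as a fixed block 8 of these 12 calls were lost (Tgfb2, Tgfb3, Bmp2, Bmp3, Bmp5, Acvr1, Acvr1b and Id2), and with slide as a random block 1 was (Bmp5). In Ex3abERKO against Ex3aERKO the fixed block lost Tgfb3, Bmpr1b, Grem1 and Gdf10 and added Tgfb2. Correlations of array deviations from group means were taken between arrays of different groups on a slide. They were 0.03 to 0.43 on slide 1, -0.03 to 0.38 on slide 2, 0.24 to 0.40 on slide 3 and 0.22 to 0.39 on slide 4. Ex3abERKO had no array on slide 3 and Ex3bERKO none on slide 2, which leaves 2 slides with both. In Ex3aERKO against Ex3bERKO ovaries 2 rose (Bmp6 and Grem1) and 0 fell, or 4.88% against 2.36% of all features (0.656% higher and 1.7% lower); 1 was lower by limma's unadjusted p under 0.05. The interaction, which asks whether ERβ loss acts differently where ERα is absent, passed for 2 genes, Ltbp1 (higher) and Bmp2 (lower), or 4.88% against 3.61% of all features (1.84% higher and 1.78% lower). Comparisons among these share arrays too, and each is given by its own values.

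Of the latent TGFβ binding proteins, Ltbp1 fell in all 3 knockouts, Ltbp2 rose in Ex3abERKO and Ex3aERKO ovaries, and Ltbp4 rose in Ex3abERKO ovaries. Ltbp1, which binds the latent TGFβ complex and anchors it to matrix fibres, was measured at chr17:73681221-73681354 (mm7, the build of the probe coordinates; gene structure on it was not used here). Its levels were -0.95, -1.10, -0.67 and -1.40 in Ex3abERKO ovaries and -1.16, -1.29, -1.17 and -0.35 in Ex3aERKO ovaries. They were -1.30, -0.93, -2.12 and -1.99 in Ex3bERKO ovaries, against 1.14, 1.24, 0.99 and 1.00 in control. Every knockout array lay below every control array, and the 3 knockouts overlapped each other. Ltbp1 fell in Ex3abERKO ovaries by 4.36-fold (log2 change -2.12 ± 0.27, SE, n = 4 each, limma adjusted p = 0.000157). In Ex3aERKO ovaries it fell by 4.24-fold (-2.08 ± 0.27, adjusted p = 0.000471) and in Ex3bERKO ovaries by 6.38-fold (-2.67 ± 0.27, adjusted p = 0.000487). The changes of the single knockouts did not add up in the double knockout, and the interaction was 2.63 ± 0.38 (limma adjusted p = 0.00231). Within slides, each of which held arrays of several groups, the Ex3abERKO change ran from -2.39 to -1.81, the Ex3aERKO change from -2.43 to -1.34 and the Ex3bERKO change from -3.11 to -2.06. A second Ltbp1 probe moved less, by -0.58 in Ex3abERKO, -0.64 in Ex3aERKO and -0.85 in Ex3bERKO ovaries, and passed the test in none of them (adjusted p = 0.26, 0.333 and 0.402). The second probe had a mean intensity of 154 units, against 1357 for the probe used. The mean of both probes passed in all 3, at -1.35, -1.36 and -1.76, and in the interaction, at 1.77.

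Ltbp2, a microfibril protein of elastic fibres that, unlike the other family members, does not bind latent TGFβ, was measured at chr12:82783519-82783578 (mm7). Its levels were 4.51, 4.71, 4.33 and 4.50 in Ex3abERKO ovaries and 3.36, 3.60, 3.06 and 2.74 in Ex3aERKO ovaries. They were 2.47, 2.91, 3.40 and 2.72 in Ex3bERKO ovaries, against 2.32, 1.72, 1.89 and 2.38 in control. The Ex3abERKO arrays lay above all others, and no array of the single knockouts reached down to the control range. Ltbp2 rose 5.4-fold in Ex3abERKO ovaries against control (log2 change 2.43 ± 0.23, limma adjusted p = 2.15e-05). In Ex3aERKO ovaries it rose 2.16-fold (1.11 ± 0.23, adjusted p = 0.00847), a call that was lost without Ex3aERKO 2, Ex3abERKO 2 and control 4, the 3 arrays with the highest liver, oviduct and erythroid sums, at 1.08, and in the mean of both probes, at 0.61. The Ex3bERKO change of 0.79 ± 0.23 did not pass (adjusted p = 0.146). The double knockout was also 2.5-fold above Ex3aERKO (adjusted p = 0.00412) and 3.12-fold above Ex3bERKO ovaries (adjusted p = 0.000596). In the mean of both probes the difference from Ex3aERKO, 0.76, did not pass. A second Ltbp2 probe changed by 0.31 in Ex3abERKO ovaries (adjusted p = 0.648), and the mean of both probes rose by 1.37 on the log2 scale and passed. This second probe had a mean intensity of 90.7 units, against 16905 for the probe used.

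Ltbp4, which takes part in elastic fibre assembly, was measured at chr7:24224015-24224074 (mm7). It had levels of 4.17, 5.21, 3.97 and 4.63 in Ex3abERKO ovaries and 4.41, 4.36, 4.54 and 4.13 in Ex3aERKO ovaries. Levels were 4.09, 4.20, 4.69 and 4.26 in Ex3bERKO ovaries, against 3.65, 3.68, 3.36 and 3.68 in control. No knockout array overlapped the control range. The rise passed in Ex3abERKO ovaries (0.90 ± 0.23, adjusted p = 0.0123) and was lost there without the 3 arrays named above, at 0.69, and in a fit of the groups compared alone, at 0.90. The changes of 0.77 in Ex3aERKO and 0.72 in Ex3bERKO ovaries did not pass (adjusted p = 0.0571 and 0.218). Ltbp3, which also binds latent TGFβ, had levels of 2.51 to 3.91 in Ex3abERKO ovaries, 3.34 to 4.21 in Ex3aERKO and 3.05 to 3.93 in Ex3bERKO, against 3.66 to 3.82 in control, and passed in no comparison.

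**Figure D2:**
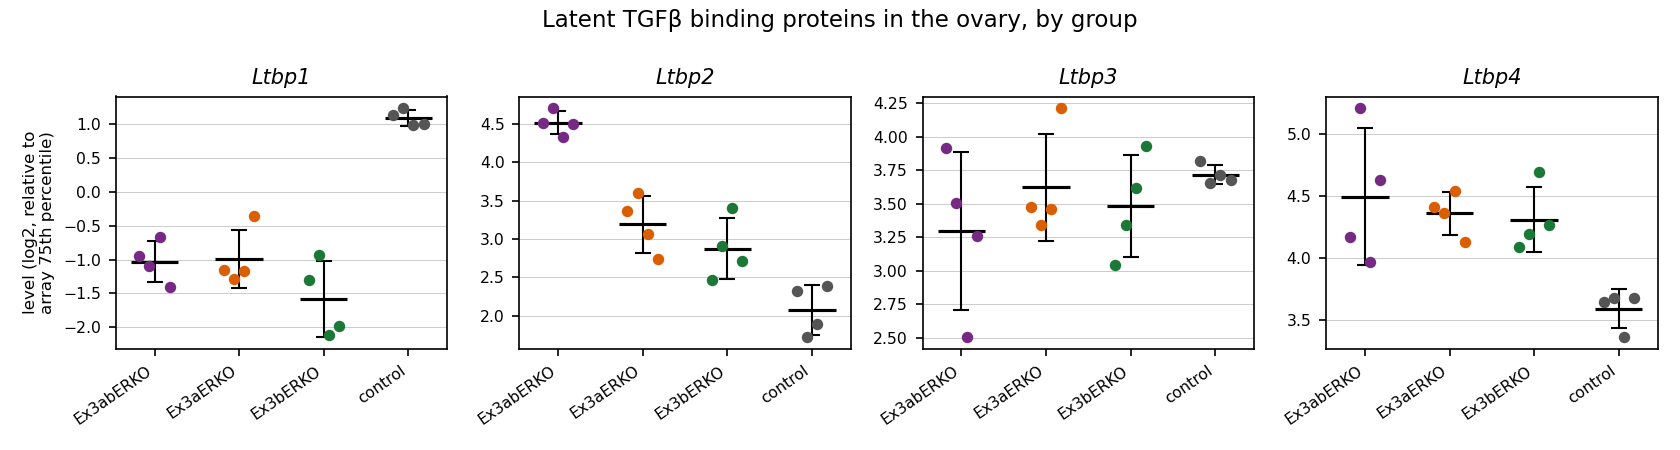
Levels of the 4 latent TGFβ binding protein genes on each array, by group, in log2 units relative to the array's 75th percentile; points are arrays, long lines group means and bars the SD, and each panel has its own axis. Ltbp1 sits near 1 in control and between -2.12 and -0.35 in the knockouts, while Ltbp2 is highest in the 4 Ex3abERKO ovaries, at 4.33 to 4.71.

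Of the 3 TGFβ ligands, Tgfb2 and Tgfb3 rose in Ex3abERKO ovaries and Tgfb1 did not pass. Tgfb3 was measured at chr12:84058334-84058393 (mm7), with levels of 3.23, 3.15, 3.03 and 3.06 in Ex3abERKO ovaries and 2.63, 2.75, 2.67 and 1.81 in Ex3aERKO ovaries. Levels were 2.22, 2.48, 2.45 and 2.56 in Ex3bERKO ovaries, against 2.25, 2.22, 2.12 and 2.17 in control. All Ex3abERKO arrays lay above all others, and Ex3aERKO 4 lay below every control array. Tgfb3 rose 1.9-fold in Ex3abERKO ovaries against control (log2 change 0.93 ± 0.18, limma adjusted p = 0.00237). It was 1.57-fold higher than in Ex3aERKO (adjusted p = 0.041) and 1.61-fold higher than in Ex3bERKO ovaries (adjusted p = 0.0188). In the single knockouts the changes against control were 0.28 in Ex3aERKO and 0.24 in Ex3bERKO ovaries, with intervals of -0.11 to 0.66 and -0.15 to 0.63. Leaving out Ex3aERKO 4 brought Tgfb3 past the test in Ex3aERKO ovaries as well, as it did Ltbp4. The difference from Ex3aERKO lost its call at the log2 changes in brackets, with median scaling (0.68), with quantile normalization (0.58), with normexp background correction (0.68), with slide as a fixed block (0.63), with the replicate block (0.65), in a fit of the groups compared alone (0.65) and without the 3 arrays named above (0.74). It was also lost without Ex3abERKO 1, 2 or 4, or without Ex3aERKO 1 or 4, or without Ex3bERKO 2 or 3, or without control 1, 2, 3 or 4, each left out alone (adjusted p = 0.0511 to 0.0865). The difference from Ex3bERKO was lost with normexp background correction (0.60), with slide as a fixed block (0.65) and without the 3 arrays named above (0.68), and without Ex3bERKO 1 (adjusted p = 0.0582).

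Tgfb2, at chr1:186149057-186149116 (mm7), had levels of -0.59, -0.30, -1.09 and -0.90 in Ex3abERKO ovaries and -1.41, -1.44, -1.20 and -2.66 in Ex3aERKO ovaries. Levels were -1.24, -1.46, -2.37 and -2.03 in Ex3bERKO ovaries, against -1.91, -1.82, -2.36 and -1.50 in control. The Ex3abERKO arrays lay above all other arrays. Tgfb2 rose 2.26-fold in Ex3abERKO ovaries against control (log2 change 1.18 ± 0.33, adjusted p = 0.0196) and was 2.08-fold higher than in Ex3bERKO ovaries (adjusted p = 0.0416). The call against control was lost with normexp background correction, at 0.83, and without the 3 arrays named above, at 1.17; it was also lost without Ex3abERKO 2, or without control 3, each left out alone (adjusted p = 0.0614 to 0.067). The difference from Ex3bERKO lost its call with normexp background correction (1.02), with slide as a fixed block (0.92), in a fit of the groups compared alone (1.05) and without the 3 arrays named above (0.91), and without Ex3abERKO 1, 2 or 4, or without Ex3aERKO 1, or without Ex3bERKO 3 or 4, or without control 1 or 2, each left out alone (adjusted p = 0.0501 to 0.125). Tgfb1 had levels of -2.15 to -0.27 in Ex3abERKO ovaries, -1.36 to -0.93 in Ex3aERKO and -1.81 to -1.46 in Ex3bERKO, against -1.82 to -0.97 in control, and its Ex3abERKO change of 0.46 had an interval of -0.21 to 1.14.

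Among TGFβ receptors the rise was in Tgfbr2, the type II receptor that binds the ligand and activates the type I receptor Tgfbr1. Measured at chr9:115760364-115760423 (mm7), Tgfbr2 had levels of 3.85, 3.84, 3.96 and 3.90 in Ex3abERKO ovaries and 2.87, 3.20, 3.17 and 2.18 in Ex3aERKO ovaries. Levels were 2.21, 2.96, 2.40 and 2.60 in Ex3bERKO ovaries, against 2.23, 2.79, 2.21 and 2.61 in control. The Ex3abERKO arrays stood within 0.12 of each other and above all the rest. Tgfbr2 rose 2.69-fold in Ex3abERKO ovaries against control (log2 change 1.43 ± 0.23, limma adjusted p = 0.000642), 2.05-fold against Ex3aERKO (adjusted p = 0.0141) and 2.54-fold against Ex3bERKO ovaries (adjusted p = 0.00168). The other 2 Tgfbr2 probes changed by -0.22 and 0.46 in Ex3abERKO ovaries, and the mean of the probes did not pass against control (0.56), Ex3aERKO (0.35) or Ex3bERKO (0.32). Those 2 probes had mean intensities of 18.7 and 59.9 units, against 13055 for the probe used, and the dimmest was well above background on 11 of 16 arrays. The mean gives every probe the same weight. The difference from Ex3aERKO was also lost in a fit of the groups compared alone (1.03). Tgfbr1 and the coreceptor Tgfbr3 passed in no comparison, with Ex3abERKO changes against control of 0.30 (-0.19 to 0.80) and -0.04 (-0.48 to 0.40).

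**Figure D3:**
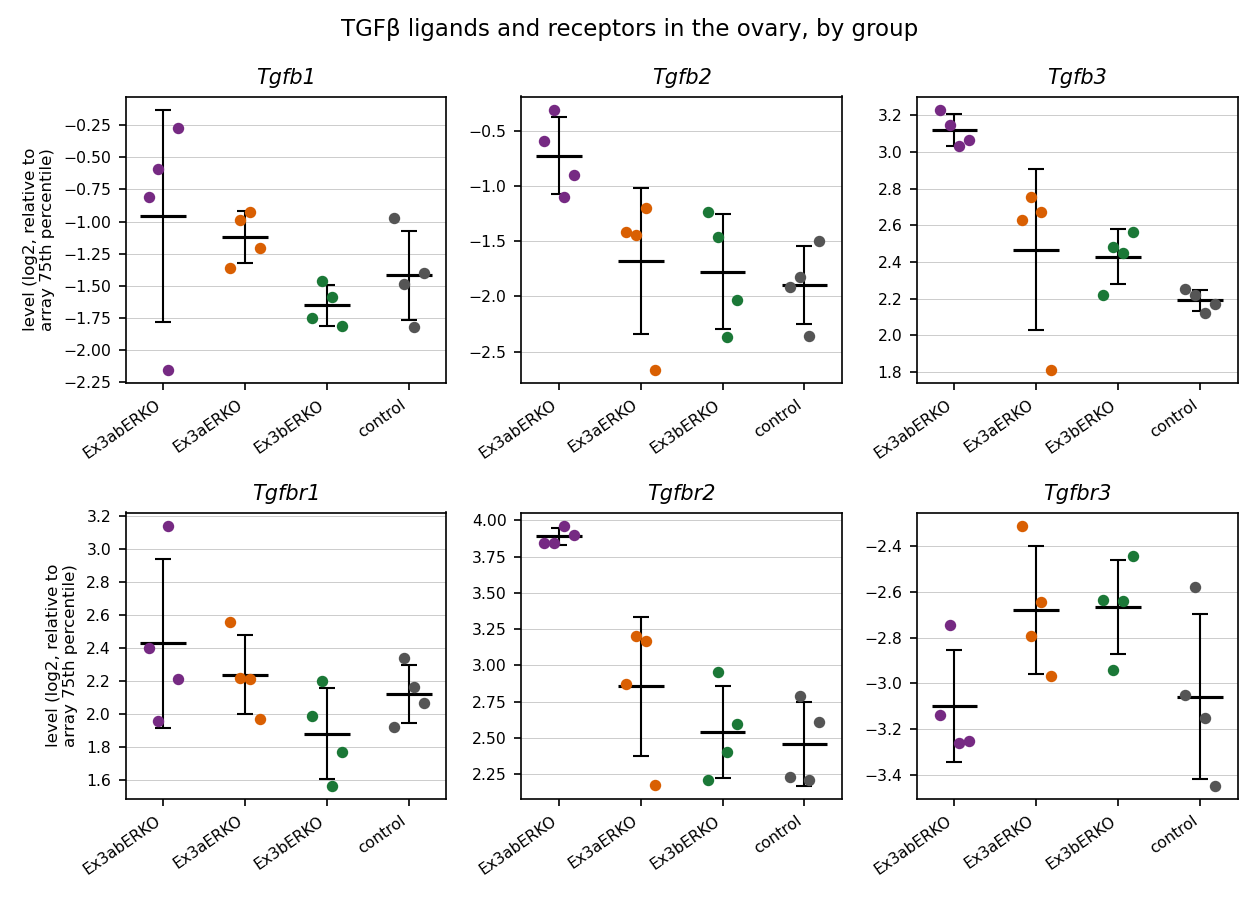
Levels of the 3 TGFβ ligand genes (top) and 3 TGFβ receptor genes (bottom) on each array, by group, in log2 units relative to the array's 75th percentile; points are arrays, long lines means and bars the SD, with an axis per panel. The 4 Ex3abERKO points of Tgfb2, Tgfb3 and Tgfbr2 lie above all 12 other arrays.

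The BMP ligands moved in both directions in Ex3abERKO ovaries, with Bmp6, Bmp7 and Gdf10 up and Bmp2 and Bmp3 down. Bmp3, a family member known to oppose signalling by other BMPs through Acvr2b, was measured at chr5:98094652-98094711 (mm7). Its levels were -4.94, -5.53, -6.12 and -4.30 in Ex3abERKO ovaries and -1.51, -1.99, -1.81 and 1.24 in Ex3aERKO ovaries. They were -3.05, -3.88, -2.87 and -1.67 in Ex3bERKO ovaries, against -1.38, -0.61, -1.57 and -1.05 in control. The Ex3abERKO arrays lay below all others, and the Ex3bERKO arrays lay below the control range, while 1 Ex3aERKO array stood above it. Bmp3 fell 16.8-fold in Ex3abERKO ovaries against control (log2 change -4.07 ± 0.64, limma adjusted p = 0.000598), more than any other of the 41 genes in that comparison. It was also 18.4-fold lower than in Ex3aERKO (adjusted p = 0.00203) and 5.12-fold lower than in Ex3bERKO ovaries (adjusted p = 0.0226). That last call was lost with normexp background correction (-1.25), with slide as a fixed block (-2.06) and without the 3 arrays named above (-2.25), and without Ex3abERKO 2 or 3, or without Ex3bERKO 3 or 4, each left out alone (adjusted p = 0.0506 to 0.0799). Without Ex3aERKO 4, which stood above the control range, the change against Ex3aERKO was -3.45, where it was -4.20 with all arrays. With normexp background correction the change was -2.92 against Ex3aERKO and -2.92 against control, and both passed. The Ex3bERKO change against control, -1.72 ± 0.64, did not pass (adjusted p = 0.332), and the interaction of -2.49 ± 0.91 did not pass either (adjusted p = 0.172).

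Bmp2, a BMP that rodent granulosa cells are known to make, was measured at chr2:133302098-133302157 (mm7). It had levels of -3.62, -3.63, -4.04 and -3.67 in Ex3abERKO ovaries and -1.57, -2.07, -2.92 and -1.33 in Ex3aERKO ovaries. Levels were -2.39, -2.86, -2.34 and -1.42 in Ex3bERKO ovaries, against -2.49, -2.51, -2.60 and -2.41 in control. All Ex3abERKO arrays lay below all others, and both single knockouts straddled the narrow control range. Bmp2 fell 2.36-fold in Ex3abERKO ovaries against control (log2 change -1.24 ± 0.32, adjusted p = 0.0125), 3.4-fold against Ex3aERKO (adjusted p = 0.00501) and 2.81-fold against Ex3bERKO ovaries (adjusted p = 0.00653). The call against Ex3aERKO was lost with normexp background correction (-1.31), and that against Ex3bERKO with normexp background correction (-1.05) and with slide as a fixed block (-1.20). The single knockouts gave 0.53 in Ex3aERKO and 0.25 in Ex3bERKO ovaries (adjusted p = 0.401 and 0.933). The interaction was -2.02 ± 0.45 (limma adjusted p = 0.0244) and lost its call without Ex3aERKO 1, or without control 3, each left out alone (adjusted p = 0.0518 to 0.0547). It was also lost with normexp background correction, at -1.17, with slide as a fixed block, at -1.73, and without the 3 arrays named above, at -2.12. Without those arrays the Ex3abERKO change against control was -1.25 and did not pass. The granulosa marker sums given above were below those of the other groups in the same 4 Ex3abERKO arrays, and their part in the Bmp2 result was not tested.

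Bmp6, which oocytes and granulosa cells of rodents are known to make, was measured at chr13:37918503-37918562 (mm7). Its levels were 0.71, 0.68, -0.36 and 0.65 in Ex3abERKO ovaries and 0.29, 0.57, 0.14 and 0.41 in Ex3aERKO ovaries. They were -1.08, -0.50, -0.74 and -0.78 in Ex3bERKO ovaries, against -0.53, -1.03, -1.31 and -1.28 in control. The groups without ERα lay above those with it on every array, with Ex3abERKO 3 well under the rest of its group. Bmp6 rose 2.75-fold in Ex3abERKO ovaries against control (log2 change 1.46 ± 0.25, limma adjusted p = 0.00091), and by 0.17 to 1.98 on the log2 scale within slides. In Ex3aERKO ovaries it rose 2.62-fold (1.39 ± 0.25, adjusted p = 0.0033), a call lost at 1.24 without the 3 arrays named above. Against Ex3bERKO ovaries it was 2.28-fold higher in Ex3abERKO (adjusted p = 0.00517) and 2.18-fold higher in Ex3aERKO (adjusted p = 0.026). The Ex3abERKO call was lost in the mean of its probes (0.76). The Ex3aERKO call was lost with normexp background correction (1.02), with slide as a fixed block (1.08), in the mean of its probes (1.01) and without the 3 arrays named above (1.05), and without Ex3aERKO 1 or 2, or without Ex3bERKO 1, 3 or 4, each left out alone (adjusted p = 0.0564 to 0.0967). Ex3bERKO ovaries changed against control by 0.27, with an interval of -0.26 to 0.79. A second Bmp6 probe changed by 0.46 in Ex3abERKO and 1.05 in Ex3aERKO ovaries and did not pass in either (adjusted p = 0.5 and 0.179). It had a mean intensity of 99.9 units, against 1483 for the probe used.

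Bmp7, known as a product of theca cells in the rodent ovary, was measured at chr2:172614090-172614149 (mm7). It had levels of 0.70, 1.06, 0.79 and 0.90 in Ex3abERKO ovaries and -0.12, -0.22, -0.32 and 0.38 in Ex3aERKO ovaries. Levels were -0.34, 0.10, -0.36 and -0.50 in Ex3bERKO ovaries, against -0.13, -0.42, -0.73 and -0.87 in control. The Ex3abERKO arrays lay above all others. Bmp7 rose 2.64-fold in Ex3abERKO ovaries against control (log2 change 1.40 ± 0.20, adjusted p = 0.000318), 1.91-fold against Ex3aERKO (adjusted p = 0.0122) and 2.2-fold against Ex3bERKO ovaries (adjusted p = 0.00214). The difference from Ex3aERKO lost its call in a fit of the groups compared alone (0.93) and without the 3 arrays named above (0.82). A second Bmp7 probe rose too, by 1.15 (limma adjusted p = 0.00218 in the fit over all probes). The rise of Bmp7 and the lower theca and Leydig marker sums stood in the same arrays, and the part of one in the other was not tested.

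Gdf10, also called BMP3B and the closest relative of Bmp3, was measured at chr14:31365575-31365634 (mm7) and moved the other way from Bmp3. Its levels were -1.36, -0.83, -1.62 and -1.44 in Ex3abERKO ovaries and -3.49, -1.92, -2.78 and -1.98 in Ex3aERKO ovaries. They were -2.03, -2.10, -3.27 and -2.09 in Ex3bERKO ovaries, against -3.01, -2.51, -2.88 and -2.63 in control. The Ex3abERKO arrays lay above all others. Gdf10 rose 2.72-fold against control (1.44 ± 0.35, adjusted p = 0.00843), a call lost with normexp background correction at 0.80, and 2.35-fold against Ex3aERKO ovaries (adjusted p = 0.0435). The difference from Ex3aERKO lost its call with normexp background correction (1.02), with no filter on dim probes (1.23), with slide as a fixed block (1.20), in a fit of the groups compared alone (1.23) and without the 3 arrays named above (1.28), and without Ex3abERKO 1, 2 or 4, or without Ex3aERKO 1 or 3, or without Ex3bERKO 1, 2 or 4, or without control 1, 2, 3 or 4, each left out alone (adjusted p = 0.0506 to 0.119). The change against Ex3bERKO ovaries, 1.06, did not pass (adjusted p = 0.0505).

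Bmp5, at chr9:75935778-75935837 (mm7), was near background, with levels of -6.46, -6.54, -5.93 and -6.91 in Ex3abERKO ovaries and -6.13, -6.87, -6.29 and -6.75 in Ex3aERKO ovaries. Levels were -5.19, -6.50, -5.12 and -4.93 in Ex3bERKO ovaries, against -6.03, -5.36, -5.44 and -6.03 in control. The Ex3aERKO arrays lay below all control arrays, and Ex3abERKO overlapped both Ex3bERKO and control. Bmp5 fell by 1.03 on the log2 scale in Ex3abERKO against Ex3bERKO ovaries (adjusted p = 0.044); the sign held on 1 of the 2 slides with both groups. The call was lost with median scaling (-0.97), with quantile normalization (-0.85), with normexp background correction (-0.15), with slide as a fixed block (-0.75), with slide as a random block (-0.94), in a fit of the groups compared alone (-1.03) and without the 3 arrays named above (adjusted p = 0.115), and without Ex3abERKO 1, 2 or 4, or without Ex3aERKO 3, or without Ex3bERKO 1, 3 or 4, or without control 1, 3 or 4, each left out alone (adjusted p = 0.0512 to 0.138). Bmp4, a theca BMP in rodents, passed in no comparison and had levels of -2.22 to -1.10 in Ex3abERKO ovaries, -1.60 to -1.07 in Ex3aERKO and -1.86 to -1.15 in Ex3bERKO, against -1.99 to -1.58 in control.

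Of the 7 BMP and activin receptors, Acvr2b alone passed against control, in Ex3abERKO ovaries. Acvr2b, a type II receptor for activins and some BMPs, was measured at chr9:119108757-119110112 (mm7). It had levels of -2.68, -2.49, -4.24 and -2.55 in Ex3abERKO ovaries and -2.37, -2.39, -2.31 and -1.78 in Ex3aERKO ovaries. Levels were -2.65, -2.52, -1.80 and -1.61 in Ex3bERKO ovaries, against -1.74, -1.72, -1.57 and -2.10 in control. The low value of Ex3abERKO 3 set that array apart, and the other Ex3abERKO arrays lay below all Ex3aERKO and control arrays and overlapped Ex3bERKO. Acvr2b fell 2.31-fold in Ex3abERKO ovaries against control (log2 change -1.21 ± 0.35, adjusted p = 0.0232), a call lost in a fit of the groups compared alone (-1.21), and without control 1, 2 or 3, each left out alone (adjusted p = 0.0511 to 0.0652).

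Bmpr1b, the type I receptor whose loss makes female mice infertile, was measured at chr3:141731572-141731631 (mm7). Its levels were -1.57, -1.47, -0.58 and -2.15 in Ex3abERKO ovaries and 0.40, -0.15, -0.46 and 2.22 in Ex3aERKO ovaries. They were -0.34, -0.57, 0.42 and 0.24 in Ex3bERKO ovaries, against -0.69, -0.22, -0.95 and -0.62 in control. Ex3abERKO and Ex3aERKO arrays did not overlap, and both overlapped control. Bmpr1b fell 3.86-fold in Ex3abERKO against Ex3aERKO ovaries (log2 change -1.95 ± 0.48, adjusted p = 0.0242), a call lost with slide as a fixed block (-1.83), in a fit of the groups compared alone (-1.95) and without the 3 arrays named above (-2.16), and without Ex3abERKO 1, 2 or 4, or without Ex3aERKO 1, each left out alone (adjusted p = 0.0522 to 0.0711). Against control the changes were -0.82 in Ex3abERKO and 1.13 in Ex3aERKO ovaries, and neither passed (adjusted p = 0.257 and 0.191).

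Acvr1, a type I receptor for BMPs at chr2:58447873-58447932 (mm7), had levels of 0.59, 0.63, -0.10 and 0.32 in Ex3abERKO ovaries and 1.10, 1.00, 0.92 and 0.77 in Ex3aERKO ovaries. Levels were 1.80, 2.05, 0.98 and 0.58 in Ex3bERKO ovaries, against 0.54, 1.23, 0.91 and 0.65 in control. It fell by 0.99 on the log2 scale in Ex3abERKO against Ex3bERKO ovaries (adjusted p = 0.0295), with the lowest Ex3bERKO array inside the Ex3abERKO range. The call was lost with normexp background correction (-1.02), with slide as a fixed block (adjusted p = 0.104), in a fit of the groups compared alone (-0.99) and without the 3 arrays named above (-1.08), and without Ex3abERKO 3 or 4, or without Ex3bERKO 1 or 2, each left out alone (adjusted p = 0.0607 to 0.089). Acvr1b, the type I activin receptor at chr15:101199369-101199428 (mm7), had levels of 0.45, 0.82, 0.13 and 0.62 in Ex3abERKO ovaries and -0.19, 0.15, 0.20 and 0.44 in Ex3aERKO ovaries. Levels were -0.11, -0.11, -0.02 and 0.05 in Ex3bERKO ovaries, against 0.12, -0.05, 0.26 and -0.03 in control. It rose by 0.55 on the log2 scale in Ex3abERKO against Ex3bERKO ovaries (adjusted p = 0.036), without overlap of those groups. The Acvr1b call was lost with normexp background correction (0.50), with slide as a fixed block (0.45), with the replicate block (0.55), in a fit of the groups compared alone (0.55), in the mean of its probes (0.36) and without the 3 arrays named above (0.45), and without Ex3abERKO 1, 2 or 4, or without Ex3bERKO 1, 2, 3 or 4, each left out alone (adjusted p = 0.0551 to 0.109). The second Acvr1b probe had a mean intensity of 42.7 units, against 1801 for the probe used. Bmpr1a, Bmpr2 and Acvr2a passed in no comparison, with Ex3abERKO changes against control of 0.02, -0.50 and -0.16.

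**Figure D4:**
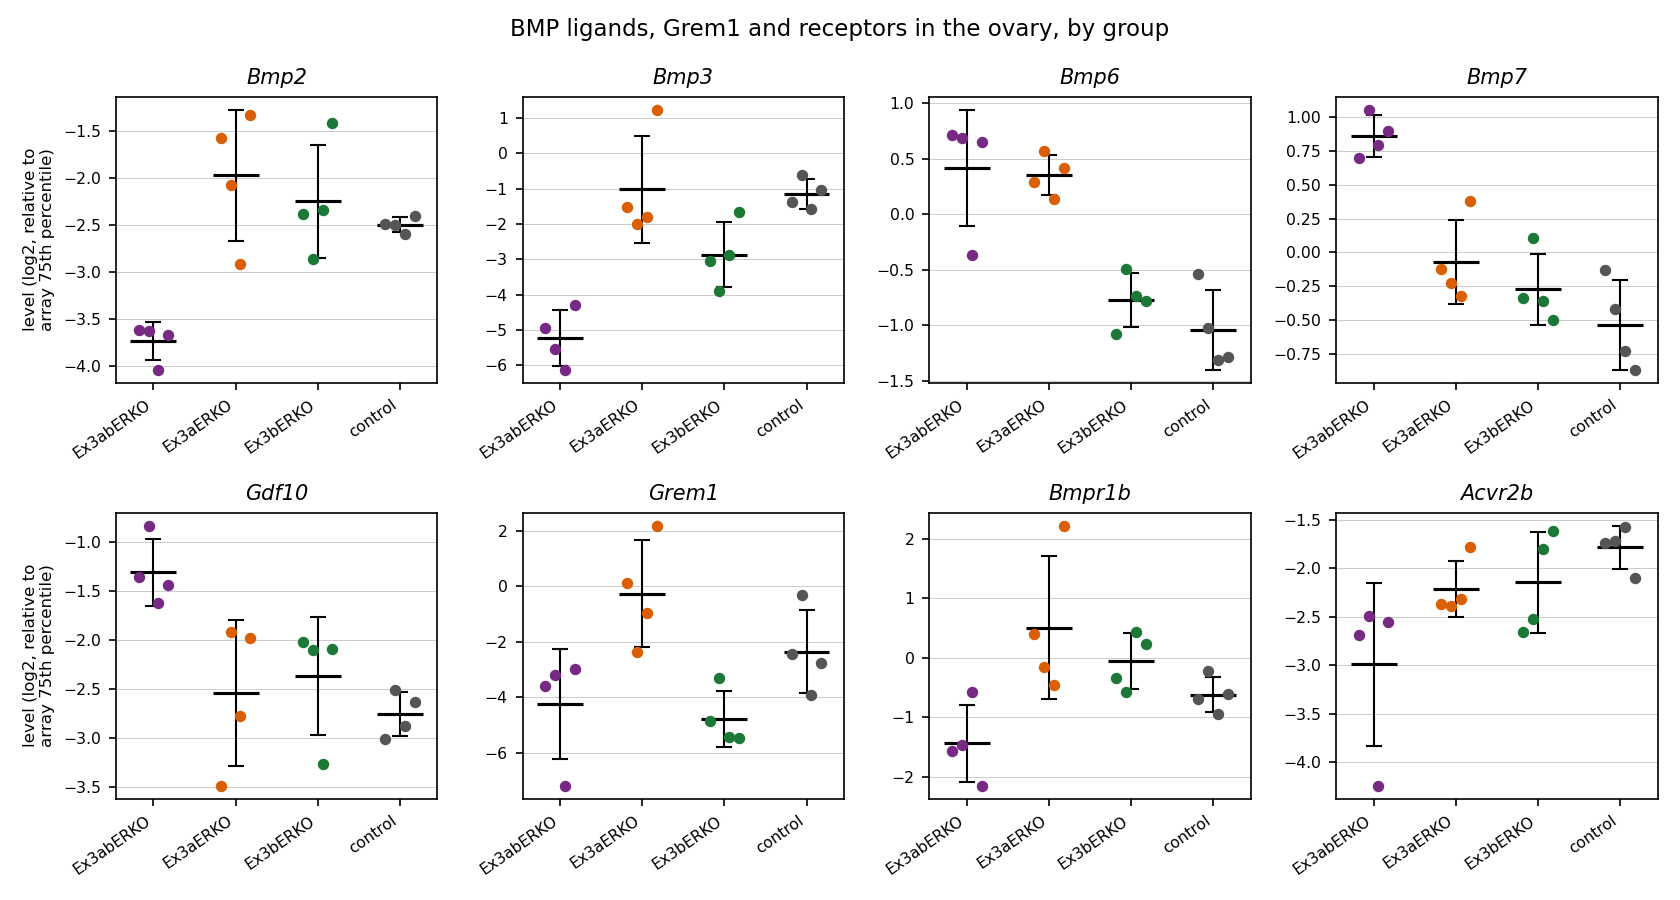
Levels of 5 BMP ligand genes, the BMP inhibitor Grem1 and the receptors Bmpr1b and Acvr2b on each array, by group, in log2 units relative to the array's 75th percentile; points are arrays, long lines means and bars the SD, with an axis per panel. Bmp6 separates Ex3abERKO and Ex3aERKO from Ex3bERKO and control, while Bmp2, Bmp3, Bmp7 and Gdf10 separate the 4 Ex3abERKO arrays from the other 12.

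Grem1, the secreted BMP inhibitor gremlin, had the widest spread of the 41 genes, with a pooled SD of 1.65 where the median of the 41 was 0.35. It was measured at chr2:113599308-113599367 (mm7), with levels of -3.61, -3.20, -7.20 and -2.99 in Ex3abERKO ovaries and 0.11, -2.38, -0.97 and 2.20 in Ex3aERKO ovaries. Levels were -4.85, -3.32, -5.44 and -5.48 in Ex3bERKO ovaries, against -2.42, -0.32, -3.91 and -2.77 in control. The Ex3aERKO ovaries held the upper end, did not overlap Ex3abERKO or Ex3bERKO, and overlapped control. Grem1 fell 15.9-fold in Ex3abERKO against Ex3aERKO ovaries (log2 change -3.99 ± 1.07, limma adjusted p = 0.0343). It was 22.8-fold higher in Ex3aERKO than in Ex3bERKO ovaries (4.51 ± 1.07, adjusted p = 0.0398), with changes of 0.93 to 7.64 across slides. The first call was lost with normexp background correction (-2.93), with slide as a fixed block (-3.90), in a fit of the groups compared alone (-3.99) and with array weights (-2.66), and without Ex3abERKO 1 or 3, or without Ex3aERKO 1, 3 or 4, each left out alone (adjusted p = 0.0502 to 0.109). The second was lost with normexp background correction (3.53), with slide as a fixed block (4.60), in a fit of the groups compared alone (4.51) and without the 3 arrays named above (5.22), and without Ex3aERKO 1, 3 or 4, or without Ex3bERKO 1, 3 or 4, or without control 1 or 4, each left out alone (adjusted p = 0.0549 to 0.134). Without Ex3aERKO 2 the changes were -4.70 and 5.22, and without the 3 arrays named above the first was -5.05. Against control the changes of -1.89 in Ex3abERKO, 2.10 in Ex3aERKO and -2.42 in Ex3bERKO ovaries did not pass, with intervals of -4.17 to 0.39, -0.19 to 4.38 and -4.70 to -0.13. The other secreted inhibitors, noggin (Nog) and chordin (Chrd), passed in no comparison, with Ex3abERKO changes against control of -0.76 (-1.92 to 0.39) and -0.14 (-0.70 to 0.41).

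None of the signal carriers Smad1 to Smad5 passed limma's test in any of the 7 comparisons, and by its unadjusted p under 0.05, 1 of the 5 did so in each knockout against control. Over all 24373 features, 22.3%, 8.06% and 1.05% were called in Ex3abERKO, Ex3aERKO and Ex3bERKO ovaries against control. By limma's unadjusted p under 0.05, 8305, 5132 and 2389 features passed. Counts of 5 genes therefore do not set the Smads apart. Against control the changes of Smad1 to Smad5 lay between -0.31 and 0.32 in Ex3abERKO, -0.67 and 0.07 in Ex3aERKO and -0.53 and 0.20 in Ex3bERKO ovaries. Taken over the 5 genes, the 95% intervals reached no further than -0.69 and 0.63 in Ex3abERKO ovaries, so a change past those bounds lies outside every interval. Smad1, which carries BMP signals, came nearest to the threshold. Its levels were 2.33 to 2.57 in Ex3abERKO ovaries, 1.40 to 2.24 in Ex3aERKO and 1.71 to 2.43 in Ex3bERKO, against 2.29 to 3.01 in control, and its change of -0.67 ± 0.22 in Ex3aERKO ovaries had an adjusted p of 0.0771. Smad2 and Smad5 varied least of the 41 genes, with a pooled SD of 0.17 each.

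The inhibitors inside the cell also stayed short of limma's threshold in every comparison, and 0 had an unadjusted p under 0.05 in any knockout against control. The counts over all features are those given above for Smad1 to Smad5. The inhibitors were the inhibitory Smads (Smad6 and Smad7), the pseudoreceptor Bambi and the ubiquitin ligases Smurf1 and Smurf2, which mark Smads and receptors for breakdown. Their Ex3abERKO changes against control lay between -0.14 and 0.48, with intervals reaching from -0.45 to 1.04. Smad6 gave 0.48 in Ex3abERKO and 0.49 in Ex3aERKO ovaries (adjusted p = 0.218 and 0.319).

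The Id genes, direct transcriptional targets of BMP receptors that encode inhibitors of basic helix-loop-helix factors, did not pass limma's test against control in any knockout, and by its unadjusted p under 0.05 only Id4 did so, in Ex3abERKO ovaries. The counts over all features are those given above for Smad1 to Smad5. Id2, at chr12:22930541-22930600 (mm7), had levels of 3.75, 3.57, 4.43 and 3.76 in Ex3abERKO ovaries and 3.27, 3.25, 3.52 and 3.02 in Ex3aERKO ovaries. Levels were 2.97, 3.54, 2.75 and 2.48 in Ex3bERKO ovaries, against 3.49, 3.16, 3.08 and 3.87 in control. It rose 1.92-fold in Ex3abERKO against Ex3bERKO ovaries (log2 change 0.94 ± 0.25, adjusted p = 0.02), and those groups did not overlap; the call was lost with slide as a fixed block (0.78) and in a fit of the groups compared alone (0.94), and without Ex3bERKO 3 or 4, each left out alone (adjusted p = 0.0576 to 0.0718). The Ex3abERKO changes of Id1, Id3 and Id4 against control were -0.01, -0.01 and 0.99, with an interval of 0.01 to 1.98 for Id4.

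Genes of the pathway outside the module were counted from a list of 61, of which 59 were measured; the list was drawn up with earlier results of these data known. In Ex3abERKO ovaries against control 12 rose and 8 fell, or 33.9% where 22.3% of all features were called, with a median change of -0.15 against -0.10 over all features. The 4 largest changes were those of Sostdc1, Gdf15, Chrdl1 and Fst. Sostdc1, a secreted BMP and Wnt inhibitor, rose by 4.46 on the log2 scale (adjusted p = 0.000409), with levels of -4.99 to -2.27 in Ex3abERKO ovaries against -8.55 to -6.48 in control, where it was well above background on 1 of 4 arrays. Gdf15, a stress-induced ligand, rose by 2.79 (adjusted p = 0.000272). Chrdl1, a chordin-like BMP inhibitor, rose in all 3 knockouts against control, by 2.48 in Ex3abERKO, 3.22 in Ex3aERKO and 2.15 in Ex3bERKO ovaries (adjusted p = 0.000333, 0.000204 and 0.00883). Its levels were -1.93 to -0.79, -1.18 to 0.04 and -2.20 to -0.86 in those groups, against -4.15 to -3.28 in control. Fst, the activin-binding follistatin and also a granulosa marker, fell by 2.48 in Ex3abERKO ovaries (adjusted p = 0.00156).

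In Ex3aERKO ovaries against control 3 of the 59 rose and 3 fell, or 10.2% against 8.06% of all features. The 4 largest changes were Chrdl1, the oocyte ligands Bmp15 (-3.04, adjusted p = 0.00153) and Gdf9 (-2.96, adjusted p = 0.00253), and Bmp8b. Bmp8b was not well above background on any control array and was at least 1.58-fold higher in Ex3aERKO ovaries, a bound against the dimmest signal well above background. It was well above background on 4 Ex3aERKO, 1 Ex3bERKO and 2 Ex3abERKO arrays. Bmp8b thus met the filter of at least 4 arrays only through the Ex3aERKO ovaries, where it was high. Its call, counted among the 3 that rose, is therefore no independent support. With normexp background correction its sign turned, to -0.55. Bmp15 and Gdf9 are also on the oocyte marker list, 7 of whose 9 measured genes fell in Ex3aERKO ovaries. In Ex3bERKO ovaries 1 rose, Chrdl1, and 0 fell, or 1.69% against 1.05% of all features, with 2 lower by limma's unadjusted p under 0.05.

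Among the knockouts, 5 of the 59 rose and 4 fell in Ex3abERKO against Ex3aERKO ovaries (15.3% against 7.78% of all features), led by Sostdc1 (4.37), Gdf6 (at least 3.88-fold higher, since no Ex3aERKO array was well above background), the activin subunit Inhba (-2.99) and Fst (-2.15). Against Ex3bERKO ovaries 8 rose and 9 fell (28.8% against 16.7% of all features), led by Sostdc1 (3.46), Bmp15 (-3.01), Gdf6 and Gdf9 (-2.75). Gdf6 was well above background on 4 of 4 Ex3abERKO and 1 of 4 Ex3bERKO arrays, with its lowest Ex3bERKO value at the floor of -8.88, so no size is given. It met the filter of at least 4 arrays only through the Ex3abERKO ovaries, where it was high. Its calls against both single knockouts and in the interaction are counted here but are no independent support. Sostdc1 was well above background on 4 of 4 Ex3abERKO, 2 of 4 Ex3aERKO and 3 of 4 Ex3bERKO arrays. Inhba and Fst are also on the granulosa marker list. Of its 10 genes 8 fell and 0 rose in Ex3abERKO against Ex3aERKO ovaries, and 4 were lower and 0 higher in the interaction. In Ex3aERKO against Ex3bERKO ovaries 0 rose (5 were higher by limma's unadjusted p under 0.05) and 3 fell (5.08% against 2.36% of all features): Bmp15 (-3.68), Gdf9 (-3.63) and Amh (-2.02), the anti-Müllerian hormone of granulosa cells. The interaction passed for 3 higher and 2 lower (8.47% against 3.61% of all features), among them Gdf6, Bmper (2.90), Chrdl1 (-2.89) and Inhba (-2.78). No size is given for Gdf6 there, since it was well above background on 4 Ex3abERKO, 0 Ex3aERKO, 1 Ex3bERKO and 1 control arrays.

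Genes often induced by TGFβ or BMP were counted from a list of 19, all measured. In Ex3abERKO ovaries against control 5 rose and 0 fell (1 was lower by limma's unadjusted p under 0.05). That is 26.3% where 22.3% of all features were called, and the median change was 0.26 against -0.10 over all features. Among those that rose were Msx2 (1.90, adjusted p = 0.000771), a BMP-induced homeobox factor, the collagen Col1a1 (1.37, adjusted p = 0.013) and Ccn2 (1.12, adjusted p = 0.0417), a matrix-associated protein. Msx2 was well above background on 3 of 4 control arrays, and with normexp background correction its change was -0.031. Col1a1 and Postn are also on the stroma and matrix list, of whose 8 genes 3 rose and 1 fell in Ex3abERKO ovaries. In Ex3aERKO ovaries 2 rose, Msx2 (2.38) and Ccn2 (1.27), and 0 fell, or 10.5% against 8.06% of all features, with 1 lower by limma's unadjusted p under 0.05. In Ex3bERKO ovaries 0 passed in either direction, and by limma's unadjusted p under 0.05, 1 was higher and 3 were lower. Against the single knockouts, Ex3abERKO ovaries had 2 of the 19 higher than Ex3aERKO (10.5% against 7.78% of all features) and 6 higher than Ex3bERKO (31.6% against 16.7%), with 0 lower in both and unadjusted counts of 0 and 1 lower.

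The 41 genes were somewhat less variable within groups than the arrays as a whole, with a median pooled SD of 0.35 against 0.39 over all features. Every called change of the 41 genes had the same sign on every slide that held both groups, apart from Bmp5 in Ex3abERKO against Ex3bERKO ovaries.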

How the data were processed

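Scanner files of 16 single-colour arrays (4 slides) were used, with 43379 non-control spots each. The deposited processed intensity (gProcessedSignal) was made by the authors with Agilent Feature Extraction, version 9.5 per the submitters' processing notes and 9.5.3.1 per the file headers, which subtracts background within the array. The deposited series table held the same values within 0.0001. Each intensity was divided by its array's 75th percentile over non-control spots and log2-transformed with a floor at -8.88; outlier spots were dropped and spots of a probe averaged. Probes well above background on at least 4 of 16 arrays were kept (36227), named through accession or symbol, and the brightest probe of each gene was used, giving 24373 features.

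limma 3.58.1 (R 4.3.3) fitted 1 mean per group over all arrays, with 12 residual degrees of freedom and moderated variances; Benjamini-Hochberg adjustment ran over all features in each of 7 comparisons. The fit was also run on simulated data with noise drawn independently for each array. That check therefore did not cover arrays of a slide deviating together. The number of arrays limits the precision. Members, pathway lists and markers were chosen with earlier results of these data known; every member is accounted for, those called at least once by array, and of the other pathway lists the 4 largest called changes per comparison are named, except 1 that is not reported here. Labels share replicate numbers across groups, but same-numbered arrays deviated together in no regular way (correlations -0.29 to 0.43), so the numbers were not used as pairs. Alternatives covered scaling, quantile and normexp normalization, probe filters, slide and replicate block, array weights, probe averaging, the series table and leaving out each array. The fit without Ex3aERKO 2, Ex3abERKO 2 and control 4 was added after seeing the data.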

Additional observations from a re-analysis of the deposited data

Results flagged for a closer look

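Single arrays stood apart from the other 3 of their group in 22 of the 164 levels (41 genes in 4 groups) by Dixon's gap test, or 13.4%, where chance flags about 1 in 20. The array Ex3aERKO 4 held 9 of them. Its levels were low for Tgfb2 (-2.66), Tgfb3 (1.81), Id4 (-2.45) and Bambi (1.10). They were high for Bmp3 (1.24), Acvr2b (-1.78), Smad6 (-1.46), Ltbp1 (-0.35) and Ltbp3 (4.21). The Smad6 gap was small, since the other 3 arrays lay close together at -1.49 to -1.48. For Bmp3 the other 3 lay at -1.99 to -1.51. The array Ex3abERKO 3 held 6, all low: Bmp2 (-4.04), Bmp6 (-0.36), Acvr2b (-4.24), Smad6 (-2.22), Grem1 (-7.20) and Smurf1 (-0.86).

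The remaining 7 were spread over 5 arrays. Ex3aERKO 2 was low for Smad3 (0.32). Ex3bERKO 1 was high for Acvr2a (-3.64) and low for Nog (-5.15). Ex3bERKO 2 was low for Bmp5 (-6.50) and Smad7 (-2.34), and Ex3bERKO 3 was low for Gdf10 (-3.27). In control, replicate 3 was low for Ltbp4 (3.36).

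For 2 genes the effect of losing ERβ differed with the presence of ERα, by the interaction term of the limma fit. Ltbp1 gave 2.63 (adjusted p = 0.00231): ERβ loss changed it by -0.04 where ERα was absent, against -2.67 where it was present. Bmp2 gave -2.02 (adjusted p = 0.0244): ERβ loss changed it by -1.77 where ERα was absent, against 0.25 where it was present. The Ltbp1 interaction kept its call in every alternative tried; the Bmp2 interaction lost it with normexp, with slide as a fixed block, without the 3 arrays high in liver, oviduct or erythroid genes, and without control 3 or Ex3aERKO 1.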

How the results depend on the processing

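No called change of the 41 genes turned sign under any alternative. Of 1184 values over 41 called changes, 168 lost the call. Of the changes, 12 kept it in every setting, among them Ltbp1 in all 3 knockouts and Ltbp2, Bmp3, Bmp6, Bmp7 and Tgfb3 in Ex3abERKO ovaries against control. Several settings could hardly move the size of a pairwise change, so its sign was fixed in advance there. They were leaving out an array of a group not compared, fitting the groups compared alone, the replicate block, the probe filters and the series table. The 1184 values are therefore not separate checks. Counts of called genes moved as follows. In Ex3abERKO against control the count of 12 was 19 with array weights and 10 to 15 with 1 array left out. In Ex3aERKO against control the count of 3 was 7 with array weights, 1 without the 3 arrays high in liver, oviduct or erythroid genes, and 3 to 5 with 1 array left out (5 without Ex3aERKO 4). In Ex3bERKO against control the count of 1 was 2 with array weights and 1 in every fit with 1 array left out. In Ex3abERKO against Ex3aERKO the count of 9 was 5 with normexp, 3 with the groups compared alone, 6 with slide as a fixed block, 5 without the 3 arrays and 5 to 9 with 1 array left out (5 without Ex3aERKO 1 or Ex3abERKO 1). In Ex3abERKO against Ex3bERKO the count of 12 was 5 with normexp, 4 with slide as a fixed block, 6 without the 3 arrays and 7 to 14 with 1 array left out (7 without Ex3bERKO 3 or 4). In Ex3aERKO against Ex3bERKO the count of 2 was 0 with normexp (3 by limma's unadjusted p under 0.05), 0 with slide as a fixed block (4 unadjusted), 0 without the 3 arrays (4 unadjusted), 1 with probes on all 16 arrays, with the groups compared alone or with mean probes, and 0 to 3 with 1 array left out (0 without Ex3aERKO 1 or Ex3bERKO 1, 3 or 4; 4 to 5 unadjusted). The interaction count of 2 was 1 with normexp, 1 with slide as a fixed block, 4 with array weights, 1 without the 3 arrays and 1 to 3 with 1 array left out (1 without control 3 or Ex3aERKO 1). With the replicate block the counts were 12, 3, 1, 8, 12, 2 and 2 in the order above; 4 of 16 arrays matched their own number best. Outside the module, normexp turned the sign of Bmp8b in Ex3aERKO (-0.55) and of Msx2 in Ex3abERKO ovaries (-0.031) against control; it also moved the median of all features to -0.34 and -0.36 in those comparisons, and the cause was not tested. Signal near background limits Bmp5, which was well above it on 2 of 4 Ex3abERKO arrays. Grem1 was well above background on 15 of 16 arrays and had a pooled SD of 1.65, the widest of the 41 genes.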
